A study of Homo sapiens with 24 samples.

Results

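The IL-4 response of THP-1 macrophages in which carboxylesterase 1 (CES1) was knocked down is described here from 4 RNA-sequencing libraries of knockdown cells given IL-4 (CES1KD M2) and 4 of resting knockdown cells (CES1KD M0). These 8 libraries are part of 24, in 6 groups of 4, that cross the knockdown and control lines with resting, IL-4 and LPS plus interferon gamma conditions. Genes were kept at 1 or more FPKM (fragment counts divided by gene length and an adjusted library size) in at least 4 of the 8 libraries. This held for 11592 of the 58735 genes in the table, 10183 of them protein-coding. THP-1 cells descend from a human monocytic leukaemia. All cells had, per the labels' protocols, 72 hours of the phorbol ester PMA at 20 nM, which turns the monocytic cells into macrophages, and M2 cells then had 100 ng/ml IL-4. The knockdown cells carried a stable lentiviral shRNA against CES1, and the comparison cells, labelled WT, had the same PMA treatment and the same IL-4 dose, with 4 libraries in M0 and 4 in M2.

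The sources used here do not give the length of the IL-4 treatment or the vector in WT cells. IL-4 was given in RPMI medium, per the labels' protocols, and the medium of the resting cells after PMA is not stated, so effects of IL-4 and of a change of medium cannot be told apart. The knockdown is 1 stable line, so differences from WT cells cannot be told apart from differences between 2 separately grown lines. The labels do not say that the 4 replicates were separate cultures, and their p-values reflect only how far these libraries vary, which may be technical.

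IL-4 binds the IL-4 receptor alpha chain (IL4R), which pairs with the common gamma chain (IL2RG) or with IL13RA1. Janus kinases on these chains phosphorylate STAT6, which dimerises, enters the nucleus and binds paired TTC and GAA half-sites. In human macrophages the pathway is known for inducing lectins such as CD209, chemokines such as CCL22, the enzymes TGM2 and ALOX15 and, through PPARG, genes of fatty acid uptake. It is also known for lowering CD14 and inflammatory mediators. CES1 is a serine hydrolase that cleaves esters of lipids and drugs.

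CES1 was close to 0 in the knockdown libraries, at 0.104, 0, 0.116 and 0.103 FPKM in M0 replicates 1 to 4 and 0.0368, 0.124, 0.0409 and 0 in M2 replicates 1 to 4. The WT libraries held 6.41 to 7.78 FPKM in M0 and 5.73 to 7.13 in M2, so every library matched its genotype label. The 8 knockdown libraries held 16247891 to 26671681 fragments on genes and 20275 to 23195 genes above 0, with 1.21 to 1.55% of fragments on mitochondrial genes. Of 12 monocyte and macrophage markers 11 were kept, of which 2 were called higher with IL-4 and 5 lower. Without M2 replicate 2, a library described below, these counts were 3 and 5. Not called were CSF1R, the receptor for the growth factor CSF1, at 280.1 ± 20.9 to 301 ± 28.5 FPKM, and SPI1, a myeloid transcription factor, at 157 ± 6.22 to 169 ± 53.1 (mean ± SD, n = 4 each). M2 replicate 2 was the lowest M2 library for both CSF1R and SPI1. CD68 was not kept, at 0, 0, 0.0259 and 0 FPKM in M0 and 0, 0, 0 and 0.0802 in M2. It was equally low in WT cells. The counting settings are not given, so a level near 0 does not show that CD68 RNA was absent. None of 8 epithelial and 8 erythroid markers was kept, and their summed levels lay at or under 0.166 FPKM in every library. Of 8 fibroblast markers only PDGFRA was kept, with a summed level of 2.56 to 3.1 FPKM in M0 and 2.34 to 2.75 in M2. Of 11 lymphocyte markers only TRAC and NKG7 were kept, and most of the summed 116 to 133 FPKM in M0 and 81.1 to 109 in M2 came from TRAC, while CD3D, CD3E and MS4A1 did not pass. Of 8 dendritic cell markers only CD1C and FLT3 were kept, and the summed level was 6.59 to 7.02 FPKM in M0 and 8.79 to 13 in M2.

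One library stood apart. CES1KD M2 replicate 2 correlated with the other M2 libraries of the line at r of 0.943 to 0.951 across genes on log2(FPKM + 1), against 0.991 to 0.992 among those 3 and 0.988 to 0.992 among the M0 libraries. Its median absolute deviation from the mean of replicates 1, 3 and 4 was 0.312 log2, and 607 genes lay at least 2-fold away. For replicate 1 against replicates 3 and 4 these values were 0.0673 and 43. The deviation followed the base composition of transcripts: with genes split into 10 equal bins by GC content, those in the lowest bin were higher by a median of 0.336 log2 and those in the highest bin deviated by -0.722. The bin of the shortest genes deviated by -0.193 and that of the longest by 0.301. WT M2 replicate 2 had a smaller slope in the same direction, from 0.141 in the lowest GC bin to -0.203 in the highest. The CES1 level of CES1KD M2 replicate 2 was that of the other knockdown libraries. Many results are given with and without it, and where a single value is given, it includes this library. RNA integrity was recorded only as a score above 4, with no value for each library. The parts of base composition and RNA integrity in the results were not tested.

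**Figure D1:**
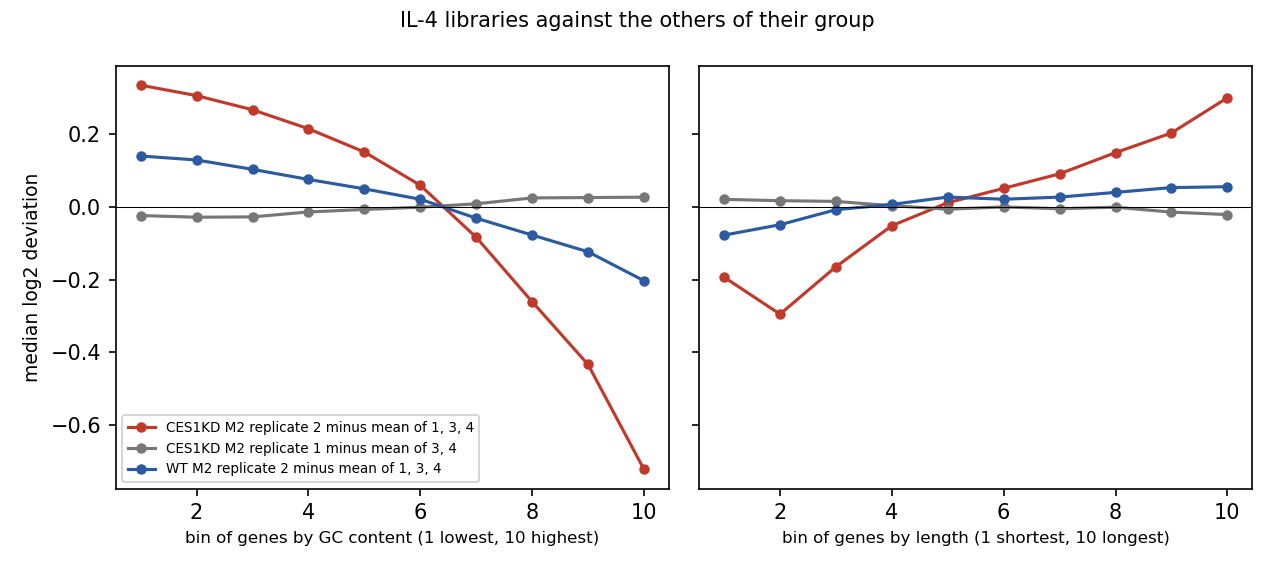
Median log2 deviation of an IL-4 library from the mean of other libraries of its group (vertical axis), over genes split into 10 equal bins by GC content of their transcripts (left) or by gene length (right). CES1KD M2 replicate 2 runs from 0.336 to -0.722 across GC bins, while CES1KD M2 replicate 1 stays between -0.0279 and 0.0274.

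The M2 libraries carried 1442 genes called higher (12.4% of those tested) and 1443 called lower (12.4%) than the M0 libraries, at adjusted p under 0.05 in a limma fit on log2(FPKM + 1). Scaling each library to its total fragments gave 1255 higher and 1759 lower, so the even split depends on the scaling. A fit of only these 8 libraries, described at the end, called 902 higher and 877 lower. Without M2 replicate 2 the fit called 1538 genes higher (13.3%) and 1601 lower (13.8%). Both fits called 1195 genes higher and 1253 lower, and no gene changed direction between them. Most differences were small: the median among called genes was 0.38 log2 for the higher and -0.40 for the lower ones, and 939 and 943 of them were under 0.5 log2 in size. At least 2-fold were 164 of the higher genes (1.41% of those tested) and 73 of the lower ones (0.63%), and at least 4-fold were 33 and 3. Without replicate 2, 174 (1.5%) and 76 (0.656%) were at least 2-fold. Among the 164, 42 genes were under 1 FPKM in every M0 library and were kept only through their M2 levels. In the highest of the 10 GC bins, 58 genes were called higher and 137 lower, and without replicate 2 the same bin had 154 higher and 94 lower.

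The 15 largest rises and 15 largest falls were chosen among called protein-coding genes whose 4 M2 libraries lay outside the range of the 4 M0 libraries. All 30 were also called without replicate 2, and their log2 differences moved by at most 0.203, for CD14. These genes were selected for their size and for groups that do not overlap, so a lack of overlap in them is part of the choice. The values below describe them. A log2 difference here is the difference of group means of log2(FPKM + 1), given with its standard error, and it understates the ratio of genes near 0.

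**Figure D2:**
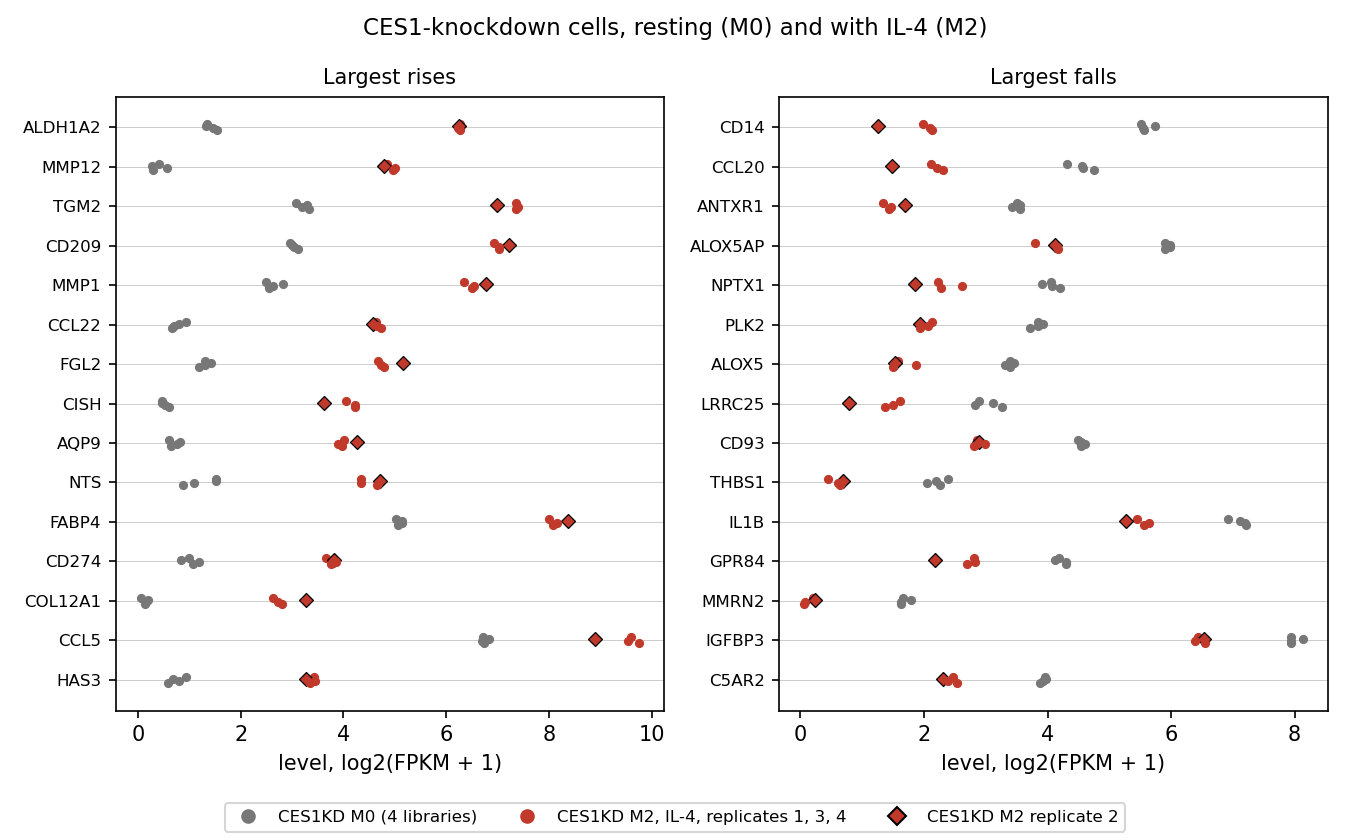
Level of the 15 genes with the largest rise (left) and the 15 with the largest fall (right) in each of the 8 knockdown libraries, as log2(FPKM + 1) on the horizontal axis. Points are libraries, grey for M0 and red for M2, and diamonds mark M2 replicate 2.

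Upstream sequence is shown for genes whose promoter window holds a site of the kind STAT6 binds. RefSeq promoter windows (GRCh38.p14, 250 bases before to 50 after the annotated start) matched 8206 of the 10183 protein-coding genes tested. The motif, TTC and GAA with any 4 bases between them, reads the same on both strands and was found in 4.45% of these windows. It was found in 11 of the 107 matched genes (10.3%) called at least 2-fold higher and in 2 of the 51 (3.92%) called at least 2-fold lower. It was also in 3 of the 25 matched windows (12%) of the type I interferon list described below, whose called members fell. TTC and GAA with any 3 bases between them, the spacing other STAT proteins bind, was found in 5 of the 107 higher genes (4.67%). It was in 7 of the 51 lower ones (13.7%), 6 of the 25 interferon windows (24%) and 6.18% of all windows. These counts are small, and the shares were not tested. A match of letters is a description and not a bound site. Capitals mark the motif.
FGL2 (chr7:77199855-77199914, minus strand): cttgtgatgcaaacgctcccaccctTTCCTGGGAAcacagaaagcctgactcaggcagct
SUCNR1 (chr3:151873393-151873433, plus strand): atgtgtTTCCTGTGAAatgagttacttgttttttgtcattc
CYSLTR1 (chrX:78327729-78327788, minus strand): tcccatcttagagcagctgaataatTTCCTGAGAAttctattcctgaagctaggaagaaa
ITGAM (chr16:31259901-31259960, plus strand): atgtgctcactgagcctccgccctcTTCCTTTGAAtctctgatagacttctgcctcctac

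FGL2, a secreted and membrane-bound relative of fibrinogen, was at 1.45, 1.68, 1.45 and 1.29 FPKM in M0 and 24.7, 34.7, 25.7 and 26.5 in M2, a log2 difference of 3.54 ± 0.09. SUCNR1, the receptor for succinate, was at 4.75, 3.98, 3.95 and 4.21 FPKM in M0 and 16.9, 23.8, 18.7 and 17.1 in M2 (1.93 ± 0.12). The M2 libraries of both genes lay above all M0 libraries, with replicate 2 the highest. CYSLTR1, a receptor for cysteinyl leukotrienes, rose by 1.02 log2, and ITGAM, the integrin alpha chain of complement receptor CR3, by 1.12.

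The receptor chains themselves did not rise. IL4R was at 12.1, 12.9, 12.3 and 11.9 FPKM in M0 and 12.1, 8.32, 12 and 11.5 in M2, and the 2 sets overlapped apart from a low M2 replicate 2 (log2 difference -0.16 ± 0.08, adjusted p = 0.172). IL13RA1 fell by 0.31 log2 (adjusted p = 0.00839). IL2RG and JAK3 were not kept, at 0.322 and 0.00354 FPKM on average in M0. STAT6, the transcription factor of the pathway, was at 50.1 ± 1.12 to 56.3 ± 8.72 FPKM. It was not called with all libraries (0.15 ± 0.08, adjusted p = 0.205) and was called higher without replicate 2 (0.27, adjusted p = 0.00118).

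Among the signalling genes of the pathway, the feedback inhibitors CISH and SOCS1 had the largest rises. CISH, a member of the SOCS family that STAT proteins induce and that restrains cytokine receptors, was at 0.39, 0.382, 0.444 and 0.525 FPKM in M0 and 15.7, 11.4, 17.6 and 17.6 in M2, a log2 difference of 3.51 ± 0.11 (adjusted p = 7.97e-17). SOCS1, an inhibitor of Janus kinases, was at 0.91, 1.04, 1.58 and 0.789 FPKM in M0 and 12.8, 4.77, 14.4 and 13.5 in M2 (2.49 ± 0.21, and 2.82 without replicate 2). In both genes replicate 2 was the lowest M2 library and still lay above every M0 library. PIK3CD, a leukocyte catalytic subunit of phosphoinositide 3-kinase, rose by 1.16 log2, IRS1, an adaptor that links the receptor to that kinase, by 0.63, and JAK2 by 0.45. PIK3R1, a regulatory subunit of the same enzyme, rose by 0.35. INPP5D, a phosphatase that opposes phosphoinositide 3-kinase, fell by 0.43. The kinases JAK1 (-0.02) and TYK2 (-0.01), the adaptor IRS2 (-0.02) and the phosphatase PTPN6 (0.10) were not called. Of 18 genes of the receptor and its signalling, 14 were kept, 6 were called higher and 2 lower, with a median of 0.13 log2, against 12.4% each way and a median of -0.0042 over all genes tested. Without replicate 2 the counts were 7 and 2. The 12.4% each way of all genes stands beside the counts of every list below, and some lists lie near it.

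Of 17 transcription factors linked to IL-4, 14 were kept, 8 were called higher and 2 lower, KLF4 among the latter (median 0.28). ZNF366, a zinc finger protein of dendritic cells and macrophages, was at 5.69, 6.69, 7.14 and 6.4 FPKM in M0 and 25.1, 22.3, 22.9 and 25.1 in M2 (1.73 ± 0.07). PPARG, the nuclear receptor that drives fatty acid genes, was at 13.1, 13.4, 13.9 and 14.6 in M0 and 23.6, 24.8, 23.3 and 24.8 in M2 (0.77 ± 0.06, adjusted p = 7.66e-10). All M2 libraries of both genes lay above all M0 libraries, and replicate 2 lay with the others. EGR2, a zinc finger factor of alternatively activated macrophages, rose from 113 ± 3.1 to 170.1 ± 29.1 FPKM, although replicate 2 at 127 was only just above the M0 libraries (0.56, and 0.70 without it). NR4A3, an orphan nuclear receptor from the immediate early list, rose by 1.99. KLF4 was called lower with all libraries (-0.35) and not without replicate 2 (-0.19). NFIL3 (0.37), NR1H3, which encodes the oxysterol receptor LXR alpha (0.36), MAF (0.31), MYC (0.29) and the histone demethylase KDM6B (0.28) rose by less, and KDM6B was not called with total scaling. RXRA, the partner of PPARG (-0.24), CEBPB (-0.13), PRDM1 (0.09) and CREB1 (0.04) were not called. IRF4, BATF3 and GATA3 were not kept.

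Surface genes known to respond to IL-4 gave some of the largest rises. CD209 (chr19:7739994-7747564), a lectin of dendritic cells and macrophages known as DC-SIGN, was at 6.73, 6.95, 7.25 and 7.6 FPKM in M0 and 120.2, 148, 129 and 129 in M2, a log2 difference of 4.02 ± 0.09 (adjusted p = 1.63e-19). FCER2, the low-affinity IgE receptor CD23, whose gene lies near CD209 on chromosome 19, was at 0.125, 0.146, 0.208 and 0.0619 FPKM in M0 and 4.73, 2.53, 4.92 and 5.14 in M2 (2.20 ± 0.14). CD274, the checkpoint ligand PD-L1, was at 0.995, 0.776, 1.28 and 1.11 in M0 and 11.6, 13.1, 13.5 and 12.5 in M2 (2.75 ± 0.09). For these 3 genes the lowest M2 library was well above the highest M0 library. PDCD1LG2, the other ligand of the receptor PD-1, rose by 1.46 log2, CD1C, which presents lipids to T cells, by 1.32, CLEC4G, a lectin of the CD209 gene cluster, by 1.07 and CLEC7A, the beta-glucan receptor Dectin-1, by 0.74.

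FCER1A, the IgE-binding chain of the high-affinity receptor, was listed at 0 in all 4 M0 libraries and stood at 3.89, 4.65, 3.71 and 5.83 FPKM in M2. CD163, the haemoglobin scavenger receptor, fell from 15.3 ± 0.658 to 5.41 ± 0.459 FPKM (-1.35 ± 0.07). CD1D, a lipid-presenting relative of CD1C, and SLAMF8, a receptor of the SLAM family, fell by 0.52 and 0.26, while the chemokine receptor CXCR4 (0.18) and IL27RA (0.06) were not called. Of 27 surface genes 13 were kept, 8 were called higher and 3 lower, and the same counts were called without replicate 2. MRC1, the mannose receptor often used to mark IL-4 macrophages, did not reach 1 FPKM, with 0.118, 0.0536, 0.0764 and 0.0195 in M0 and 0.45, 0.866, 0.439 and 0.248 in M2, although its M2 libraries all lay above its M0 libraries. CLEC10A, CD1A, CD1B, CD1E and CD200R1 were not kept either.

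Among secreted proteins and enzymes, TGM2 (chr20:38127387-38166578), a transglutaminase that cross-links proteins, was at 7.48, 8.76, 8.2 and 9.03 FPKM in M0 and 163, 125, 167 and 164 in M2, a log2 difference of 4.05 ± 0.08 (adjusted p = 8.35e-20). CCL22, a chemokine that attracts CCR4-bearing T cells, was at 0.907, 0.734, 0.62 and 0.587 FPKM in M0 and 23.9, 22.8, 24.1 and 25.4 in M2 (3.87 ± 0.06). IL1RN, the soluble antagonist of the IL-1 receptor, was at 288, 313, 292 and 303 in M0 and 682, 702, 682 and 712 in M2 (1.21 ± 0.07). No M2 library of these genes overlapped with M0, and the M0 level of IL1RN was already high. F13A1, the coagulation factor XIII A chain, had no fragment in 3 of 4 M0 libraries and stood at 3.16, 3.79, 3.05 and 3.41 FPKM in M2. IL4I1, an amino acid oxidase named for its induction by IL-4, rose from 62.1 ± 6.93 to 125 ± 30.3 (0.96 ± 0.13), with replicate 2 at 79.4 far under the others, and by 1.17 without it. GALNT12, a glycosyltransferase, rose by 1.14 log2, ADORA3, the adenosine A3 receptor, by 0.92 and QPRT, an enzyme of NAD synthesis, by 0.81. DHRS11, a short-chain dehydrogenase (0.88), PALLD, an actin-binding protein (0.64), CTSC, a lysosomal protease (0.49), and HOMER2, a scaffold protein (0.40), also rose. ARG2, a mitochondrial arginase, and TGFBI, a matrix protein, were called lower at -0.61 and -0.27, as was CHI3L1, a chitinase-like protein, at -0.22. CTSL (0.05) and RAMP1 (-0.16) were not called. Of 32 such genes 20 were kept, 15 were called higher and 3 lower (median 0.90, and 0.94 without replicate 2). Several chemokines known from IL-4-treated human monocytes were not kept, among them CCL13, CCL17, CCL18, CCL24 and CCL26, as were the amine oxidase MAOA and the arginase ARG1.

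ALDH1A2 (chr15:57953424-58497866), the dehydrogenase that makes retinoic acid, had the largest log2 difference of all protein-coding genes chosen. Its levels were 1.53, 1.5, 1.76 and 1.9 FPKM in M0 and 76.6, 75.6, 73.6 and 76.2 in M2, with a log2 difference of 4.84 ± 0.06 and a ratio of mean FPKM of 45.2. AQP9, a channel for water and glycerol whose gene overlaps ALDH1A2 on the other strand of chromosome 15, rose from 0.633 ± 0.111 to 15.4 ± 1.9 FPKM (3.33 ± 0.11). The sources used here do not say whether the counting used strand, so reads of overlapping genes on opposite strands may not be separable. AC012653.2, a transcript within an ALDH1A2 intron, rose by 2.07 log2. CCL5, a chemokine that attracts T cells and monocytes, was at 104, 113, 103 and 105 FPKM in M0 and 773, 479, 739 and 863 in M2 (2.71 ± 0.12). Replicate 2 was the lowest M2 library for CCL5 and still more than 4 times the highest M0 library.

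Proteases and matrix genes moved in both directions. MMP12 (chr11:102862736-102875034), the macrophage elastase, was at 0.327, 0.213, 0.484 and 0.216 FPKM in M0 and 27.9, 26.6, 31.3 and 30.1 in M2 (4.52 ± 0.10). MMP1 (chr11:102789920-102798160), an interstitial collagenase from the same gene cluster, was at 4.62, 6.11, 5.21 and 4.88 in M0 and 80.9, 108, 91.8 and 89.9 in M2 (3.91 ± 0.09). Both rose without overlap, and MMP7, another protease of that cluster, rose from 48.4 ± 2.19 to 155 ± 10.5 FPKM. HAS3, a hyaluronan synthase, rose by 2.63 log2, COL12A1, a collagen associated with fibrils, by 2.73, COL6A1 by 1.25, VCAN, a large proteoglycan, by 1.11 and FN1 (fibronectin) by 1.12. MMP9, a gelatinase, fell from 810.2 ± 60.5 to 469 ± 98.9 FPKM (-0.81 ± 0.12, and -0.64 without replicate 2). SPP1, the secreted phosphoprotein osteopontin, fell from 2777 ± 74.9 to 1559.6 ± 92.6 FPKM (-0.83 ± 0.07). THBS1, a thrombospondin that binds CD36, fell from 3.69 ± 0.46 to 0.513 ± 0.101 (-1.63 ± 0.07). Of 30 matrix genes, proteases and inhibitors 24 were kept, 10 were called higher and 6 lower, and without replicate 2, 10 and 4.

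**Figure D3:**
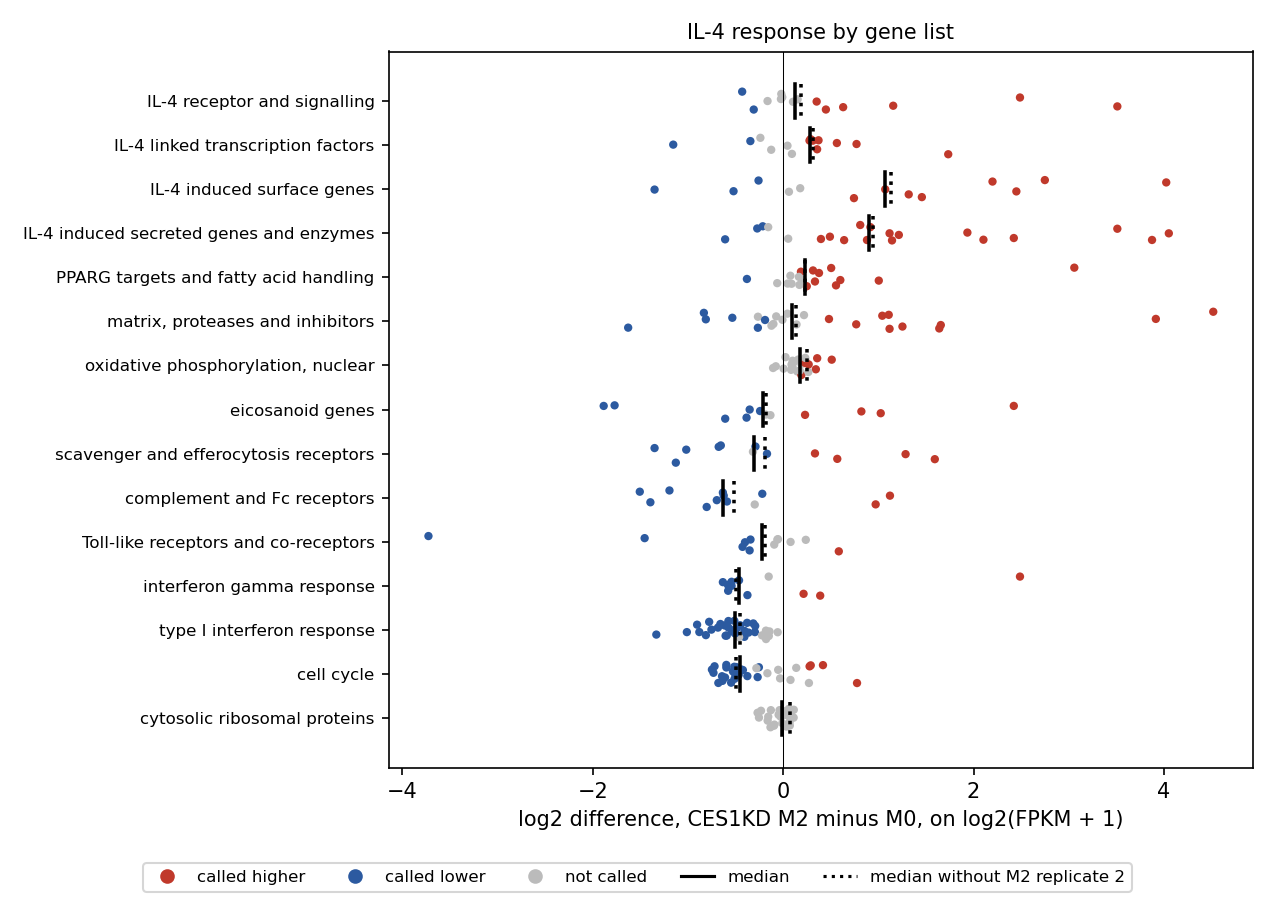
Log2 difference between CES1KD M2 and M0 (horizontal axis, on log2(FPKM + 1)) for each kept member of 15 gene lists, red where called higher, blue where called lower and grey otherwise. Solid bars are list medians and dotted bars the medians without M2 replicate 2: the IL-4 surface genes have a median of 1.07 and the type I interferon genes of -0.50.

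Lipid genes are given in detail because CES1 hydrolyses lipid esters. FABP4, a fatty acid carrier and PPARG target, was at 31.5, 34.5, 34.3 and 32.3 FPKM in M0 and 255, 332, 284 and 268 in M2, a log2 difference of 3.06 ± 0.10 (adjusted p = 1.67e-16). LPL, a lipase that releases fatty acids from lipoproteins, was at 564, 568, 544 and 555 in M0 and 1036, 1328, 1073 and 1060.2 in M2 (1.00 ± 0.08). LIPA, the lysosomal acid lipase that splits cholesteryl esters, was at 157, 166, 164 and 165 in M0 and 371, 542, 399 and 389 in M2 (1.36 ± 0.10). All 3 rose without overlap, with replicate 2 the highest M2 library. The fatty acid carrier FABP5 rose by 0.60 log2 and the scavenger receptor CD36, which takes up oxidised lipoproteins, by 0.33. Of 20 PPARG targets and genes of fatty acid handling 18 were kept, 10 were called higher and 1 lower, with or without replicate 2.

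Sterol genes moved less. NPC1, which exports cholesterol from lysosomes, rose from 4.42 ± 0.263 to 11 ± 0.408 FPKM (1.14 ± 0.05). NCEH1, a neutral cholesteryl ester hydrolase, rose by 0.44 log2, and SOAT1, which esterifies cholesterol, was at 8.49 ± 0.485 to 8.5 ± 1.32 FPKM (-0.01 ± 0.09). ABCA1, the transporter that exports cholesterol to apolipoprotein A-I, fell from 9.0 ± 0.43 to 5.23 ± 1.44 FPKM (-0.71 ± 0.12). SQLE, a monooxygenase of cholesterol synthesis, fell by 0.60 log2 and DHCR7, the last enzyme of one branch of that route, by 0.72, whereas IDI1, an isomerase of the same route, rose by 0.61. Of 24 genes of cholesterol synthesis and uptake 22 were kept, 6 were called higher and 2 lower, and without replicate 2, 4 and 2. Of 15 LXR targets 12 were kept, 3 higher and 2 lower, with a median of -0.16 log2 (-0.04 without replicate 2). Of 22 lipid ester hydrolases 17 were kept, 5 higher and 2 lower, and CES1 was not kept.

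Genes of lipid mediators moved in both directions. ALOX15, a 15-lipoxygenase that IL-4 is known to induce, was at 0.495, 0.503, 0.517 and 0.55 FPKM in M0 and 7.12, 6.9, 7.63 and 6.88 in M2 (2.42 ± 0.07). ALOX5AP, which presents arachidonic acid to 5-lipoxygenase, was at 58.8, 62.5, 62.2 and 58.9 in M0 and 12.9, 16.3, 16.8 and 17 in M2 (-1.89 ± 0.09). ALOX5 itself was at 9.48, 10.0, 8.97 and 9.54 in M0 and 2.0, 1.87, 2.65 and 1.84 in M2 (-1.77 ± 0.09). No library overlapped between the states for any of these genes. PLA2G4A, a phospholipase that frees arachidonic acid, rose by 1.26 log2 and PTGER2, a prostaglandin E2 receptor, by 0.82. PTGS2, the inducible cyclooxygenase, was not kept, at 0.512, 0.427, 0.775 and 0.644 FPKM in M2. Of 20 eicosanoid genes 12 were kept, 4 were called higher and 6 lower, and without replicate 2, 4 and 4.

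Receptors for bacterial products, complement and antibodies fell more often than they rose. CD14 (chr5:140631728-140633701), the co-receptor for LPS, had the largest fall among the genes chosen, from 44.4, 52.7, 45.7 and 46.3 FPKM in M0 to 2.96, 1.39, 3.27 and 3.35 in M2 (-3.73 ± 0.13, adjusted p = 1.12e-15). Its mean FPKM was 17.3 times as high in M0 as in M2, and replicate 2 was the lowest library. TLR2, a receptor for bacterial lipopeptides, was at 42.7, 41.8, 44.1 and 43.1 in M0 and 15.3, 15.6, 15 and 14.2 in M2 (-1.46 ± 0.07). Of 17 Toll-like receptors, co-receptors and adaptors 12 were kept, 1 was called higher and 6 lower. The exception was LY96, the LPS-binding partner of TLR4, at 7.94 ± 2.53 to 12.1 ± 2.47 FPKM (0.58 ± 0.16, adjusted p = 0.00831), with libraries that overlapped between M0 and M2.

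C5AR1, the receptor for complement fragment C5a, was at 226, 231, 237 and 261 FPKM in M0 and 82.8, 95.6, 95.7 and 86.7 in M2 (-1.40 ± 0.07). C5AR2, another C5a receptor, fell by 1.51 log2 and C3AR1, the receptor for C3a, by 1.20. FCER1G, the signalling chain shared by Fc receptors, fell from 592 ± 29.7 to 339 ± 32.9 FPKM. FCGR2A, a low-affinity IgG receptor, rose from 2.93 ± 0.111 to 6.74 ± 0.916 (0.97 ± 0.09). Of 25 complement and Fc receptor genes 12 were kept, 2 were called higher and 9 lower, with or without replicate 2, and the median was -0.63 (-0.52 without it). Among 18 scavenger and efferocytosis receptors 12 were kept, 4 higher and 7 lower. MERTK, a receptor kinase for dying cells, fell from 59.6 ± 1.67 to 28.9 ± 1.09 FPKM and MSR1, a class A scavenger receptor, from 94.1 ± 4.96 to 59.8 ± 9.1. LRP1, a large endocytic receptor, fell from 6.38 ± 0.436 to 2.39 ± 0.349. OLR1, a receptor for oxidised LDL, rose from 15.7 ± 1.0 to 49.4 ± 4.48, and GAS6, a ligand of MERTK, from 1.49 ± 0.188 to 5.1 ± 0.742. CD93, a lectin-like receptor of monocytes, and LRRC25, a leucine-rich membrane protein of myeloid cells, fell by 1.66 and 1.71 log2.

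Inflammatory ligands did not move as 1 group. IL1B, the cytokine IL-1 beta, was at 121, 137, 146 and 147 FPKM in M0 and 42.8, 37.5, 48.9 and 46.5 in M2 (-1.63 ± 0.08, adjusted p = 8.62e-13). CCL20, the ligand of CCR6, was at 19, 22.5, 22.9 and 26.1 in M0 and 3.34, 1.79, 3.64 and 3.97 in M2 (-2.52 ± 0.13). CXCL8, which attracts neutrophils, was at 166, 180.3, 208 and 205 in M0 and 74.4, 114, 91 and 90.2 in M2 (-1.04 ± 0.11). All 3 fell without overlap. TNF was low and was not called, at 1.17 ± 0.33 to 1.13 ± 0.549 FPKM (-0.05 ± 0.14). CSF1, the macrophage growth factor, rose from 32.6 ± 1.82 to 64.6 ± 11.3 (0.95), CCL4, a chemokine close to CCL3, from 1.34 ± 0.20 to 10.2 ± 2.82 (2.22), and TRAF1, a signalling adaptor of TNF receptors, from 7.8 ± 0.775 to 17.5 ± 1.42 (1.08). BIRC3, an inhibitor of apoptosis, rose by 1.06 log2, and IL7R, the receptor for IL-7, and CXCL1, a ligand of CXCR2, fell by 1.06 and 1.05. CCL3, which attracts monocytes, stood at 36.8, 4.64, 27.7 and 34.8 in M2 against 7.35, 9.57, 12.7 and 10.6 in M0, so that replicate 2 alone lay under the M0 libraries (0.99, adjusted p = 0.124, and 1.64, adjusted p = 0.000503 without it). CCL3 and CCL4 have near-identical copies, CCL3L1 and CCL4L2, between which reads may be split. Of 20 inflammatory chemokines 12 were kept, 2 higher and 5 lower (4 and 5 without replicate 2). Of 26 cytokines and NF-kB targets 19 were kept, 4 higher (21.1%) and 3 lower (15.8%), against 12.4% each way of all genes.

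Genes of the interferon response were lower with IL-4 as a group. IFIT1, an antiviral RNA-binding protein, was at 78.3, 61, 67.6 and 71.9 FPKM in M0 and 49, 38.8, 49.3 and 43.6 in M2 (-0.62 ± 0.11, adjusted p = 0.000103). RSAD2, the antiviral enzyme viperin, was at 43.9, 31.7, 34.4 and 41.3 in M0 and 21.2, 18.8, 21.3 and 17.2 in M2 (-0.90 ± 0.09). ISG15, a ubiquitin-like modifier, was at 388, 331, 388 and 432 in M0 and 301, 119, 277 and 265 in M2 (-0.75 ± 0.20, and -0.45 without replicate 2). The M2 libraries lay under all M0 libraries for these 3 genes, and for ISG15 replicate 2 was far under the rest. Of 36 type I interferon genes 34 were kept, none was called higher and 27 were called lower, with a median of -0.50 log2. Without replicate 2, 28 were called lower and the median was -0.46. The summed level of the list was 3579.6 to 4319 FPKM in M0 libraries and 2178 to 3023 in M2 libraries. The M2 level of IFIT1 remained far above that of WT cells, where IFIT1 was at 1.91 ± 0.451 FPKM in M0 and 1.32 ± 0.29 in M2.

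The size of the falls varied within the list. IFITM1, a membrane protein that blocks viral entry, fell by 1.33 log2 (0.95 without replicate 2), and IFI44L by 1.01. MX1, an antiviral GTPase, fell by 0.36. Of 18 interferon gamma response genes 11 were kept, 3 higher and 7 lower. CXCL10, a chemokine for T cells, fell from 37.6 ± 6.35 to 24.7 ± 3.06 and GBP1, a guanylate-binding protein, from 10.2 ± 1.14 to 6.7 ± 0.58. MHC class I presentation had 6 of 16 kept genes lower and none higher, 4 without replicate 2 and 10 with libraries scaled to total fragments, with B2M at -0.21. Only HLA-DRB1 and CD74 of 13 MHC class II genes were kept, and HLA-DRB1 was called lower (-0.50).

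The promoter windows of these genes often held an interferon-stimulated response element, searched as GAAA, any 2 bases and GAAA on either strand. It was found in 17 of the 25 windows matched for the type I interferon list (68%), against 3.03% of all matched windows. The element also stands upstream of CD274 and SOCS1, which rose, so the letters alone do not mark the direction. Capitals mark the element, written as GAAA or TTTC repeats according to the strand on which it lies, and in IFIT1 and CD274 another match follows or overlaps the one marked.
IFIT1 (chr10:89392482-89392541, plus strand): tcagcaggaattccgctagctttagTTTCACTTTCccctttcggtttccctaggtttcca
IFITM1 (chr11:313975-314034, plus strand): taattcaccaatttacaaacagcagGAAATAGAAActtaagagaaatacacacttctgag
CD274 (chr9:5450309-5450368, plus strand): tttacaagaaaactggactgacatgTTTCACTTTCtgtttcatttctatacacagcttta
SOCS1 (chr16:11256283-11256342, minus strand): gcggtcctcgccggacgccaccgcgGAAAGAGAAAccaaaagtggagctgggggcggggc

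**Figure D4:**
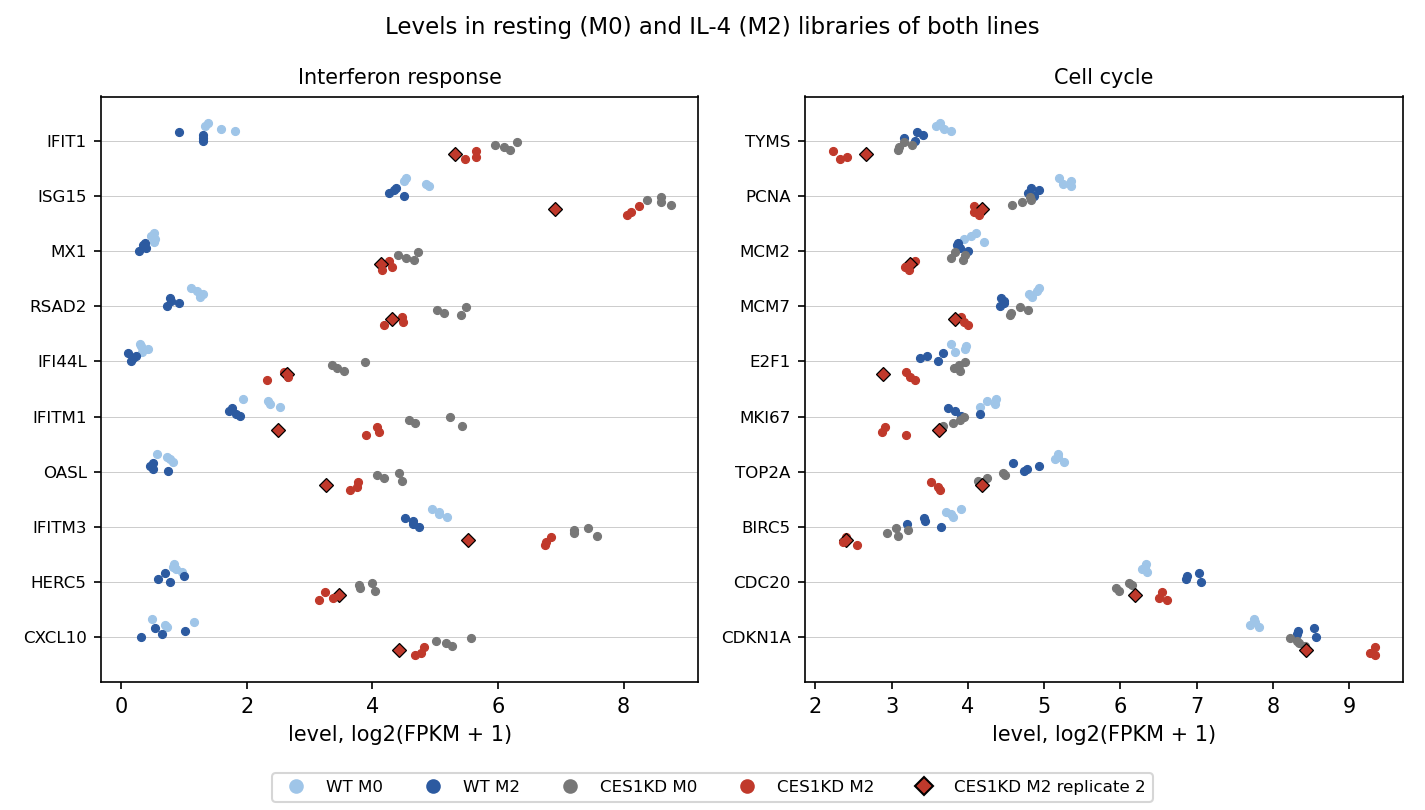
Level of 10 interferon response genes (left) and 10 cell cycle genes (right) in the resting and IL-4 libraries of both lines, as log2(FPKM + 1) on the horizontal axis, 1 point per library and a diamond for CES1KD M2 replicate 2. IFIT1 lies at 38.8 to 78.3 FPKM in knockdown libraries, and the M2 points of most genes sit to the left of the M0 points of the same line.

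Cell cycle genes were mostly lower. TYMS, which makes thymidylate, was at 7.96, 8.63, 7.56 and 7.5 FPKM in M0 and 3.67, 5.34, 4.33 and 3.98 in M2 (-0.75 ± 0.09, adjusted p = 6.48e-07). MCM2, a subunit of the replicative helicase, was at 13.2, 14.7, 12.7 and 14.3 in M0 and 8.9, 8.44, 8.07 and 8.4 in M2 (-0.64 ± 0.06). MKI67, a marker of cycling cells, was at 14.4, 13.9, 13 and 11.8 in M0 and 6.54, 11.4, 6.31 and 8.12 in M2 (-0.68 ± 0.13), with replicate 2 closest to the M0 libraries. CDKN1A, the cyclin-dependent kinase inhibitor p21, rose from 297, 317, 324 and 341 FPKM in M0 to 647, 346, 617 and 649.7 in M2 (0.78 ± 0.14, and 1.00 without replicate 2, which lay just above M0). CDC20, an activator of the anaphase-promoting complex, rose by 0.42. Of 33 cell cycle genes 32 were kept, 21 were called lower and 4 higher, with a median of -0.45; without replicate 2, 21 were lower and 6 higher. In bulk libraries fewer cycling cells and less of these RNAs per cell cannot be told apart.

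Among metabolic and housekeeping lists, oxidative phosphorylation genes were called higher more often than all genes, by small amounts. Of 26 nuclear genes of oxidative phosphorylation 25 were kept, 8 were called higher (32%, against 12.4% of all genes) and none lower (12 and none without replicate 2), with CYCS (cytochrome c) at 0.51 ± 0.09 and UQCRC2 (a subunit of complex III) at 0.36 ± 0.06. None of the 13 mitochondrially encoded genes was called with limma, either way, with or without replicate 2, and none of 28 cytosolic ribosomal protein genes was called with all libraries. PFKP, the platelet isoform of phosphofructokinase, stood out from the glycolysis genes: it was at 44, 42.1, 41.9 and 42.4 FPKM in M0 and 184, 158, 180.3 and 178 in M2 (2.01 ± 0.06), whereas 4 of the 25 kept members were called higher in all and 4 lower. The glycolysis counts were 16% each way, near the 12.4% of all genes, and 6 and 3 genes without replicate 2.

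Adhesion molecules had 8 higher and 7 lower of 22 kept, 7 and 7 without replicate 2, and 6 and 8 with total scaling. ITGB3, an integrin beta chain, rose by 0.88 log2 and CD44, the hyaluronan receptor, by 0.72, while ITGAL, the alpha chain of LFA-1, fell by 0.96 and ITGB5 by 0.81. Heat shock genes had 6 higher and none lower of 14, and 7 and none without replicate 2. They were led by HSPD1, a mitochondrial chaperonin (0.38 ± 0.05), and HSPH1, a cytosolic chaperone (0.51 ± 0.10). Of NRF2 targets 6 were higher and 1 lower of 18 kept, but the split was 5 and 2 without replicate 2 and 4 and 3 with total scaling. Metallothioneins and zinc transporters had 4 higher and none lower of 7, and 3 and none without replicate 2. The zinc importer SLC39A8 was at 3.76 ± 0.21 to 10.5 ± 1.86 FPKM (1.26 ± 0.07). Stress response genes had 3 higher (13.6%) and 1 lower (4.55%) of 22, against 12.4% each way of all genes, and 5 and none without replicate 2. ATF5, a transcription factor of that response, rose from 29.6 ± 0.866 to 57.5 ± 13.6 FPKM, and DDIT4, an inhibitor of mTOR signalling, was called lower (-0.77) and not without replicate 2 (-0.49).

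Immediate early genes, which respond to stimulation within minutes in many cells, had 7 higher and 4 lower of 21, and 11 and 2 without replicate 2. JUN was at 113, 122, 122 and 122 FPKM in M0 and 184, 101, 174 and 181 in M2, with replicate 2 alone under the M0 libraries (0.37, and 0.58 without it, and not called with total scaling). EGR1 stood at 46.2, 49.9, 52 and 55.2 in M0 and 67.2, 32.7, 68.5 and 67.4 in M2 and was called only without replicate 2 (0.41, against 0.15 with it). Lysosomal genes had 3 higher (13.0%) and 4 lower (17.4%) of 23, near the 12.4% each way of all genes, and 3 and 2 without replicate 2. CTSD, the protease cathepsin D, was at 128, 29.2, 107 and 117 in M2 and 142, 152, 174 and 169 in M0, so that its call rested on that library (-0.93, adjusted p = 0.0464, and -0.44, adjusted p = 0.178 without it). These genes share the pattern of 1 low M2 library. Enzymes of tryptophan, arginine and polyamines had 4 higher and 3 lower of 13, and 3 and 3 without replicate 2. KMO, of the kynurenine route, rose by 0.68 log2. TDO2, which opens the tryptophan ring, fell from 116 ± 4.1 to 58.3 ± 2.3 FPKM. Granule and progenitor genes had 2 higher and 4 lower of 9, and 2 and 3 without replicate 2. RNASE2, an eosinophil-type ribonuclease, was at -0.84 log2 and SRGN, the proteoglycan of granules, at 0.37. Of 7 kept monocyte markers 2 were higher and 2 lower. Of 17 kept macrophage markers 5 were higher and 8 lower, and 6 and 8 without replicate 2. The co-stimulatory receptor CD40 (0.91) and LGALS3, a galactose-binding lectin (0.70), were among the higher ones.

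Other large changes fell outside these lists. NTS, the precursor of the peptide neurotensin, was at 1.87, 1.87, 1.13 and 0.846 FPKM in M0 and 19.4, 25.3, 19.3 and 24.2 in M2 (3.26 ± 0.12). IGFBP3, a carrier of insulin-like growth factors, was at 244, 279, 246 and 244 in M0 and 85.5, 91.7, 82.8 and 92.4 in M2 (-1.51 ± 0.05). These genes did not overlap between the states. ANTXR1, a receptor that anthrax toxin uses, fell from 10.4 ± 0.497 to 1.81 ± 0.309 FPKM, NPTX1, a neuronal pentraxin, from 15.7 ± 1.37 to 3.81 ± 1.02, PLK2, a polo-like kinase, from 13.3 ± 0.825 to 3.06 ± 0.278, GPR84, a receptor for medium-chain fatty acids, from 17.7 ± 1.16 to 5.28 ± 1.19, and MMRN2, a matrix protein of the multimerin family, from 2.2 ± 0.164 to 0.107 ± 0.0692. Among non-coding genes, AC078850.1, a long intergenic RNA on chromosome 4, was at 9.26, 8.74, 9.54 and 9.36 FPKM in M0 and 65.4, 73.7, 68.2 and 59.8 in M2 (2.73 ± 0.12), and the pseudogene AC022400.4 rose by 2.36. The largest non-coding falls were in AL358394.1 (-1.80), AC245128.3 (-1.53) and AL512324.1 (-1.50), of which AL512324.1 lies within AL358394.1 on the other strand of chromosome 10.

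Control cells answered IL-4 with many of the same genes. Both lines were compared on 12729 genes with 1 or more FPKM in at least 4 of their 16 M0 and M2 libraries, and the groups of the 2 lines share no library. Of 235 genes called at least 2-fold higher in WT cells, 216 (91.9%) were called higher in knockdown cells, where 11.7% of the 12729 genes were called higher, and 115 were at least 2-fold higher. Their median log2 difference was 1.45 in WT and 0.99 in knockdown cells. The genes were chosen by their WT values, and such a choice alone can make the median in the other line smaller. The difference of responses, described below, was called lower in knockdown cells for 135 of the 235 and higher for 9. Over all genes these shares were 4.34% and 2.45%. The difference subtracts the WT values that chose the 235, which favours lower calls. These counts by themselves therefore do not show a weaker response in knockdown cells. Of 99 genes called at least 2-fold lower in WT cells, 64 (64.6%) were called lower and 1 was called higher in knockdown cells, where 11.8% of all genes were called lower, with medians of -1.20 and -0.70. Of the 99, 32 were kept only through WT levels and did not pass in the knockdown libraries alone, so a fall could hardly be called there, and of the 235, 30 did not pass there. In the other direction, 155 of 167 genes (92.8%) at least 2-fold higher in knockdown cells were called higher in WT cells, against 15.1% of all genes. Of 75 genes at least 2-fold lower, 63 (84%) were called lower, against 12.6%. The medians of the 167 were 1.46 log2 in WT and 1.30 in knockdown cells, and those of the 75 were -0.90 and -1.27. The 167, chosen by their knockdown values, thus had the larger median in WT cells, while the 75 had the smaller fall there.

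The difference of the responses was tested directly as the knockdown response minus the WT response. It was called for 864 genes (6.79%), of which 312 (2.45%) had a higher value in knockdown cells and 552 (4.34%) a lower one. Scaling each library to its total fragments moved the median of all genes from -0.02 to 0.03 log2 and gave 489 higher and 433 lower, so which side is larger depends on the scaling. Without CES1KD M2 replicate 2, 1162 genes were called (9.13%), 396 higher (3.11%) and 766 lower (6.02%), and 289 of the 312 and 524 of the 552 were called again. Among the 552, 173 genes rose in both lines and less in knockdown cells, and 173 rose in WT cells and were not called in knockdown cells. Among the 312, 142 fell in WT cells and were not called in knockdown cells. Genes kept only through WT levels are low in knockdown cells, where a fall could hardly be called. Among genes that passed in the 8 knockdown libraries alone, the difference was called for 724, 232 higher and 492 lower. 

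**Figure D5:**
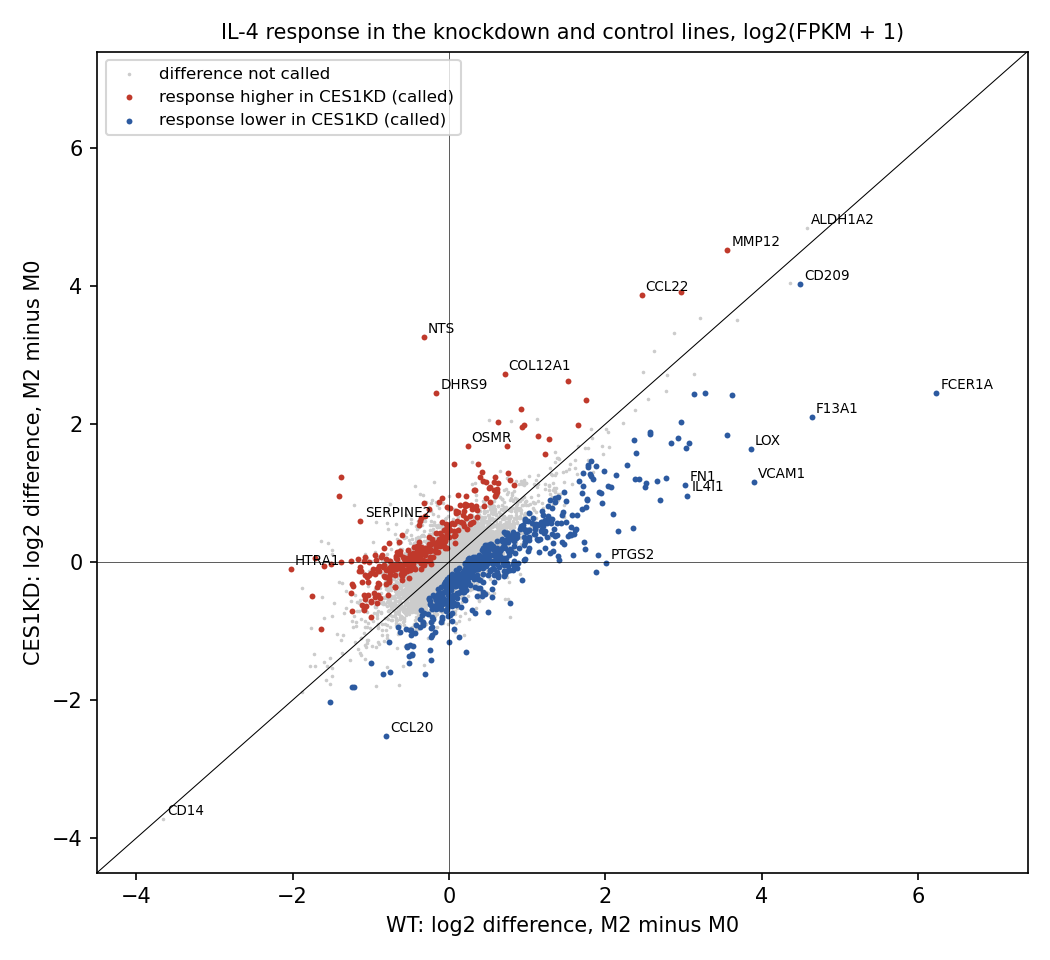
Log2 difference between M2 and M0 in WT cells (horizontal axis) and CES1KD cells (vertical axis) for 12729 genes on log2(FPKM + 1), red or blue where the difference between the lines was called. ALDH1A2 and CD14 lie near the line of equal response, while FCER1A (6.24 in WT, 2.45 in CES1KD) and NTS (-0.32 in WT, 3.26 in CES1KD) lie far from it.

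The genes in the next sentences were chosen for the size of the called difference and are described without further test. NTS went from 11.9 ± 1.1 to 9.34 ± 0.811 FPKM in WT cells (mean ± SD, n = 4 each) and from 1.43 ± 0.523 to 22 ± 3.16 in knockdown cells, a difference of responses of 3.58 ± 0.17 log2. DHRS9, a dehydrogenase of retinoids and steroids, went from 19.5 ± 1.35 to 17.4 ± 2.25 in WT cells and from 0.572 ± 0.15 to 7.64 ± 1.2 in knockdown cells (2.62 ± 0.15). Both genes had lower resting levels in knockdown than in WT cells. COL12A1 went from 0.0174 ± 0.00522 to 0.666 ± 0.0744 in WT cells and from 0.0964 ± 0.0436 to 6.36 ± 1.55 in knockdown cells (2.02 ± 0.14). OSMR, the receptor chain for oncostatin M, went from 0.057 ± 0.0258 to 0.247 ± 0.0603 in WT cells and from 0.989 ± 0.186 to 5.4 ± 0.811 in knockdown cells (1.45 ± 0.12). NTS, COL12A1 and OSMR stood higher in knockdown M2 than in WT M2 libraries, and DHRS9 stood lower. The WT means of COL12A1 and OSMR were under 1 FPKM in both states, so their differences of responses depend on the pseudocount.

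SERPINE2, an inhibitor of serine proteases, fell in WT cells by 1.13 and rose in knockdown cells by 0.59 log2. GJA1, a gap junction protein, fell by 1.60 in WT cells and was at 2.18 ± 0.143 to 2.05 ± 0.17 in knockdown cells, which was not called. HTRA1, a secreted protease, and CEACAM6, an adhesion molecule, fell in WT cells from 6.19 ± 0.476 to 0.775 ± 0.209 and from 5.24 ± 0.158 to 1.19 ± 0.0864 FPKM. In knockdown cells neither was kept, with M0 means of 0.0878 and 0.0195 FPKM, which stand beside their differences of 1.92 ± 0.14 and 1.48 ± 0.13. CD86, a co-stimulatory ligand, went from 1.45 ± 0.265 to 1.55 ± 0.0264 in WT cells and from 0.519 ± 0.157 to 3.07 ± 0.131 in knockdown cells (1.36 ± 0.14), and CCL22 had a difference of 1.41 ± 0.09, CCL4 of 1.30 ± 0.19 and HAS3 of 1.10 ± 0.11. With limma voom on fragments the difference for CCL4 was -0.21, the opposite sign.

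On the other side, FCER1A went from 0.107 ± 0.0986 to 82.4 ± 6.72 FPKM in WT cells and from 0 to 4.52 ± 0.962 in knockdown cells (-3.79 ± 0.13, adjusted p = 1.57e-14). VCAM1, an adhesion molecule for lymphocytes, went from 0.0063 ± 0.00875 to 14 ± 0.998 in WT cells and from 0.218 ± 0.107 to 1.72 ± 0.297 in knockdown cells (-2.74 ± 0.13). F13A1 went from 0.562 ± 0.192 to 37.7 ± 1.49 in WT cells and from 0.0108 ± 0.0216 to 3.35 ± 0.327 in knockdown cells (-2.54 ± 0.10). The M2 level of all 3 was lower in knockdown cells. FCER1A was listed at 0 in the M0 libraries of knockdown cells, so its value depends on the pseudocount. The ratio of M2 to M0 depends on levels near 0 in the others too, and a fit of fragment counts with precision weights (limma voom) gave 2.34 for F13A1, the opposite sign.

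LOX, which cross-links collagen, went from 0.251 ± 0.0941 to 17.1 ± 1.15 in WT cells and from 0.157 ± 0.0251 to 2.65 ± 0.666 in knockdown cells (-2.22 ± 0.13). IL4I1 went from 9.54 ± 0.696 to 86.3 ± 4.3 in WT cells and FN1 from 2.33 ± 0.101 to 26.1 ± 2.25, with differences of -2.09 ± 0.19 and -1.90 ± 0.16. The resting level of IL4I1 and FN1 was higher in knockdown cells, at 62.1 and 74.2 FPKM. PTGS2 and CCL1, a chemokine for CCR8, rose in WT cells from 0.43 ± 0.0756 to 4.77 ± 0.315 and from 1.62 ± 0.16 to 8.64 ± 1.04 FPKM and were not kept in knockdown cells. IL1RN had a difference of -1.57 ± 0.10, CCL20 of -1.72 ± 0.18, ALOX15 of -1.20 ± 0.09, ZNF366 of -1.11 ± 0.10 and EGR2 of -0.87 ± 0.12. The comparison of the lines held 15 transcription factors of the IL-4 list, all but BATF3 also kept in the knockdown libraries alone, and 5 had a called difference, lower in each case, among them EGR2, ZNF366, NFIL3 and MAF. Total scaling gave 4 lower, and leaving out replicate 2 gave 5 lower and 1 higher. No call was made for the difference in CD14 (-0.07 ± 0.19), TGM2 (-0.31 ± 0.12), CISH (-0.17 ± 0.15), PPARG (-0.03 ± 0.08) or LIPA (0.07 ± 0.15), which does not show that the lines respond alike.

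For some lists the difference between the lines was called in a larger share of members than the 6.79% of all genes, although for most members it was not called. Of the 25 glycolysis and hypoxia genes in the comparison of the lines 17 were called higher and 2 lower in WT cells, with a median of 0.35 log2, against 4 and 4 in knockdown cells. The difference itself was called lower for 10 of them and higher for 2, and for 13 and 2 without replicate 2. HK2, the first enzyme of glycolysis, went from 7.0 ± 0.466 to 18.2 ± 1.06 FPKM in WT cells and from 22 ± 1.04 to 28.8 ± 2.67 in knockdown cells (-0.89 ± 0.09). SLC2A1 and SLC2A3, glucose transporters, had differences of -0.54 ± 0.14 and -0.75 ± 0.14, and GAPDH, a glycolytic enzyme, of -0.45 ± 0.08. Immediate early genes had 12 called higher and 1 lower in WT cells, and the difference was called lower for 8 and higher for 1, among them DUSP2, a phosphatase of MAP kinases (-0.998 ± 0.22), DUSP1 (-0.83 ± 0.10) and IER3 (-0.86 ± 0.21).

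The comparison of the lines held 12 granule and progenitor genes, of which 3 were kept through WT levels and did not pass in the knockdown libraries alone, so a fall could hardly show there. In WT cells 9 fell. The difference was called higher for 4, 1 of them among those 3, and lower for none (2 and none with limma voom on fragments, 6 and none with total scaling), with MYB, a progenitor transcription factor, going from 31.6 ± 1.75 to 16.3 ± 1.47 FPKM in WT cells and from 2.27 ± 0.179 to 1.55 ± 0.259 in knockdown cells. Its resting level was lower in knockdown cells. Of the type I interferon genes 15 fell and 1 rose in WT cells, and the difference was called lower for 6 of 34 and higher for none. With limma voom on fragments it was called for 1, so this count depends on the scale, and the resting level of IFIT1 was 69.7 FPKM in knockdown cells against 1.91 in WT cells. Cell cycle genes had 16 lower and 4 higher in WT cells. The difference was called for 2 of 32 with all libraries and for 6 of 32 without CES1KD M2 replicate 2, where 9.13% of all genes were called. The 2 were MCM2 (-0.47 ± 0.08) and CCND1, a cyclin of the G1 phase (-0.68 ± 0.10).

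For a few genes replicate 2 lay far from the other M2 libraries. CD52, a small glycoprotein of lymphocytes and monocytes, was at 246, 19.8, 210.0 and 254 FPKM in M2 and 160.3, 171, 202 and 179 in M0, with replicate 2 alone far under both sets (-0.47, and 0.41 without it, called in neither fit). HIST2H4A, a replication-dependent histone H4 gene with near-identical copies, was at 1.19, 9.46, 0.875 and 1.15 in M2, with replicate 2 alone high. The other genes farthest above the M2 group in replicate 2 were AC004556.1 at 28.3 FPKM, AL162151.2 at 9.62, RF00019 at 9.15 and MIR548A3 at 6.9. Those farthest under it were MIR4734, MIR5587 and RNA5SP283, each at 0 there, and AC027309.2 at 0.95. These short genes rest on few fragments.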

How the data were processed

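Gene-level FPKM of 24 RNA-sequencing libraries (total RNA, per the labels) were used as deposited by the authors, with gene length from the same table. The authors used CASAVA, HISAT2 and DESeq, per the submitters' processing notes. The sources used here do not give their roles, their versions, the genome build or the counting settings. Gene coordinates in the table match GENCODE release 29 (GRCh38) for 58724 of 58735 genes. FPKM multiplied by gene length came out as whole multiples of 1 fragment for 100% of values above 0 in each library (tolerance 1e-06), so fragments per gene could be recovered. The library size in the FPKM was 0.870 to 1.14 times the fragments on genes over the 24 libraries. It was 1.04 to 1.08 times in CES1KD M0 and 1.01 to 1.04 times in CES1KD M2. The deposited values thus carry a scaling between libraries, which scaling to total fragments takes out. Every column was matched to a library by its title.

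The fit was limma 3.58.1 (R 4.3.3) on log2(FPKM + 1), with means for 6 groups of 4 libraries, an intensity trend and Benjamini-Hochberg adjustment over all genes kept, two-sided, called at adjusted p under 0.05. It was also run on simulated counts with the same spread setting for all genes and no outlying library, which does not cover M2 replicate 2. Summaries and figures used Python 3.11.15, numpy 2.4.6, pandas 2.3.3, scipy 1.17.1 and matplotlib 3.10.9. Adjusted p-values in the text come from this limma fit unless another is named. The comparison of the lines kept genes at 1 FPKM in at least 4 of 16 libraries. Alternatives were other pseudocounts (0.1 and 5 FPKM), median centring, scaling to total fragments, limma voom on the recovered fragments, no trend, the replicate number as a block, other filters, only the 8 knockdown libraries, and each library left out in turn.

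The text names CES1, the 15 largest rises and falls among called protein-coding genes with groups that do not overlap and a mean of at least 2 FPKM, 3 non-coding genes each way, the members of the IL-4 lists and up to 5 members of every other list by p. It also names the 8 largest called differences each way between the lines, the 10 genes in which M2 replicate 2 lay farthest from its group, and genes of the same family or role beside these. Some members of the lists are not reported here. Genes and lists were chosen with earlier results of these data known.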

Additional observations from a re-analysis of the deposited data

Results flagged for a closer look

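The IL-4 response differed between knockdown and WT cells for 77 genes named in the text or beside them, by the test of the difference itself (adjusted p under 0.05 in the limma fit over 12729 genes). Values are the knockdown response minus the WT response on log2(FPKM + 1), and groups of the 2 lines share no library. Among receptors and surface genes with a smaller or more negative value in knockdown cells, the difference was -3.79 for FCER1A, -2.74 for VCAM1, -1.20 for CD1B, -0.93 for CD1E, -0.67 for CD1C, -0.87 for CD163, -0.85 for GPR84, -0.84 for ADORA3, -0.75 for TRAC, -0.67 for CSF1R, -0.65 for SLAMF8, -0.51 for ANTXR1, -0.46 for CD209, -0.45 for TLR2 and -0.39 for MERTK. Among chemokines, cytokines and their regulators it was -2.02 for CCL1, -1.72 for CCL20, -1.56 for CCL13, -1.57 for IL1RN, -0.84 for CXCL1 and -0.78 for IL1B. Among matrix and secreted genes it was -2.54 for F13A1, -2.22 for LOX, -1.90 for FN1, -1.32 for THBS1, -0.60 for NPTX1, -0.57 for COL6A1 and -0.44 for GAS6. Among enzymes and transporters it was -2.09 for IL4I1, -2.02 for PTGS2, -1.20 for ALOX15, -0.89 for HK2, -0.88 for PLA2G4A, -0.75 for SLC2A3, -0.69 for LPL, -0.54 for SLC2A1, -0.48 for TDO2, -0.46 for SQLE and -0.45 for GAPDH. Among transcription factors and signalling genes it was -1.11 for ZNF366, -0.87 for EGR2, -0.86 for IER3, -0.86 for ATF5, -0.998 for DUSP2, -0.83 for DUSP1, -0.59 for NFIL3, -0.57 for PLK2, -0.45 for IRS2 and -0.30 for MAF. Among interferon and cell cycle genes it was -0.84 for IFI44L, -0.74 for GBP1, -0.68 for CCND1, -0.49 for RSAD2 and -0.47 for MCM2.

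Positive values, a larger or less negative response in knockdown cells, were 3.58 for NTS, 2.62 for DHRS9, 2.02 for COL12A1, 1.92 for HTRA1, 1.72 for SERPINE2, 1.54 for GJA1, 1.48 for CEACAM6, 1.45 for OSMR, 1.41 for CCL22, 1.36 for CD86, 1.30 for CCL4 and 1.10 for HAS3. HTRA1 and CEACAM6 were not kept in knockdown cells, so their values rest on the fall in WT cells. COL12A1 and OSMR were under 1 FPKM on average in WT cells. Smaller ones were 0.97 for FABP5, 0.96 for MMP12, 0.95 for MMP1, 0.86 for FCGR2A, 0.57 for PIK3CD, 0.56 for CLEC7A, 0.55 for MYB, 0.50 for TGFBI, 0.34 for NR4A3, 0.31 for SRGN and 0.29 for ITGAM. SERPINE2 and FABP5 were called higher with IL-4 in knockdown cells and lower in WT cells, while MMP12 and MMP1 rose in both lines. With limma voom on fragments the difference had the opposite sign for MMP12 (-0.28), CCL4 (-0.21), NR4A3 (-1.66), F13A1 (2.34), CXCL1 (0.61) and PLK2 (0.0823). TRAC and GAPDH were called lower in knockdown cells and higher in WT cells.

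Single libraries lay far from the other 3 of their group for the genes below. The value is the gap to the nearest library as a share of the whole range in FPKM, given where it is above Dixon's 95% limit for 4 libraries, which chance alone passes in about 1 in 20 groups. CES1KD M2 replicate 2 was the library in 36 of 43 such cases, 5 of them genes that were named because it lay far from its group there, so this count is not to be read against chance. It was the lowest library with a gap of 0.965 for EGR1, 0.955 for KLF4, 0.95 for IL4I1, 0.948 for MMP9, 0.945 for CSF1R, 0.917 for TGM2, 0.906 for PTPN6, 0.902 for EGR2 and 0.902 for SLC2A1. It was also the lowest at 0.896 for CHI3L1, 0.894 for CEBPB, 0.893 for SPI1, 0.892 for CDKN1A, 0.877 for JUN, 0.873 for DUSP2, 0.87 for CCL3L1, 0.859 for ATF5, 0.853 for NKG7, 0.851 for IL4R, 0.844 for FCER2 and 0.833 for SOCS1. It was the highest library at 0.963 for HIST2H4A, 0.947 for PRDM1, 0.943 for AC004556.1, 0.93 for AL162151.2, 0.905 for NCEH1, 0.904 for PIK3R1, 0.892 for BIRC3, 0.872 for LPL and 0.867 for RF00019. The remaining genes in which it was the highest stood at 0.858 for IDI1, 0.848 for PALLD, 0.839 for CD44, 0.839 for MIR548A3, 0.837 for LIPA and 0.836 for HSPH1. Elsewhere, M0 replicate 1 was the lowest at 0.97 for JUN, 0.852 for CYSLTR1 and 0.844 for KMO, and M2 replicate 1 at 0.829 for KMO. M0 replicate 2 was the highest at 0.942 for IGFBP3 and 0.885 for PTGS2, and M0 replicate 4 at 0.834 for IL13RA1.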

How the results depend on the processing

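Called genes in knockdown cells numbered 2885 with all libraries. They stayed within 1.5 times of that in every alternative except a fit of only the 8 knockdown libraries, which called 1779 (902 higher, 877 lower). That fit has fewer degrees of freedom and takes the spread of each gene from these libraries alone, M2 replicate 2 among them. The main fit shares the spread over 6 groups. The cause of the lower count was not tested. A filter of 5 FPKM tested fewer genes and called 917 lower. Genes at least 2-fold changed numbered 237, and 386 with a pseudocount of 0.1, 85 with 5 and 408 with voom on fragments, which called 2968 genes in all. For the difference between lines the 2-fold counts were 93, and 160, 25 and 166 under the same alternatives, and scaling to total fragments gave 489 higher instead of 312. Leaving out each library in turn gave 2460 to 3139 called genes in knockdown cells and 711 to 1162 for the difference. With the replicate number as a block, 2876 genes were called in knockdown cells and 834 for the difference. Deviations of same-numbered libraries correlated at -0.122 to 0.0352 in knockdown and 0.0117 to 0.105 in WT cells, and not every library correlated best with its own number, so the numbers do not pair them. M2 libraries of the 2 lines with the same number correlated at 0.361, 0.423, -0.0599 and 0.194 for numbers 1 to 4, not all above 0.1. The block ended the call of KDM6B and added one for RXRA. No named response that was called with all libraries changed sign in these alternatives, while some not called did, CD52 among them. Of 203 named responses 19 lost their call in at least 1 alternative, and of 77 named differences 27 lost it or changed sign. Of the differences 6 changed sign: voom on fragments gave 2.34 for F13A1, -1.66 for NR4A3 (-1.16 with a pseudocount of 0.1), 0.61 for CXCL1, -0.28 for MMP12, -0.21 for CCL4 and 0.0823 for PLK2. The cause was not tested. Fragments recovered from FPKM show that genes under 1 FPKM rest on few fragments, where fold changes depend on the pseudocount.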
